A study of Mus musculus with 22 samples.

Results

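The genes described here encode the MHC class II presentation machinery of the mouse liver: Cd74, H2-Aa, H2-Ab1, H2-Eb1, H2-DMa, H2-DMb1 and Ciita. They were chosen by name for their role in antigen presentation, with earlier results of these data known, and every probe set annotated to them was taken. They are 7 of the 19324 gene symbols in the array annotation and are covered by 16 of the array's 45101 probe sets. Of these, 14 probe sets name 1 member alone, and the other 2 name H2-DMb1 together with its neighbour and close relative H2-DMb2, so that 6 members have a probe set of their own and H2-DMb1 has none.

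RNA from the whole livers of 22 mice was hybridised to Affymetrix arrays, 1 animal per array. The younger mice, aged 5 weeks, comprised 4 wild-type (WT) animals, 4 lacking Trim24 (Trim24-/-), and 4 lacking Trim24 in which 1 allele of Rara, the gene of the retinoic acid receptor alpha, was also deleted (Trim24-/- Rara+/-). The older mice, aged 14 weeks, comprised 5 WT and 5 Trim24-/- animals. Trim24 was inactivated by gene disruption, and the series title places its protein as a restraint on interferon signalling that works through Rara. Mice heterozygous for both genes, hybrids of C57BL/6 and 129/Sv, were crossed with each other to give the 3 genotypes. Loss of 1 Rara allele was therefore measured only in mice that also lacked Trim24, no group had the Rara deletion with intact Trim24, and Trim24 was absent from the whole animal and not from a chosen cell type. The labels give no sex, litter or array batch. Animals are named below by the codes that end their labels, such as 90WT at 5 weeks and liver_616WT at 14 weeks.

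Values are array signals scaled to a common trimmed mean of 100.001 on every array, and differences are on the log2(signal + 16) scale. The median signal of a probe set was 12.6 to 16.1 at 5 weeks and 19.7 to 25.9 at 14 weeks, so a signal below 16 is within the dim part of every array. All 9 measured hepatocyte markers stood above 16 in at least some animals of every group, with summed signals of 60262 to 99046, and the tissue label matches them. The probe set of Trim24 was not lower on average in the mutants at 5 weeks, with means of 317 ± 111, 363 ± 84.7 and 450.4 ± 34.1 in WT, Trim24-/- and Trim24-/- Rara+/- animals (SD, n = 4 each), nor at 14 weeks, with 168 ± 24.2 in WT and 235 ± 59.3 in Trim24-/- animals (n = 5 each). The probe set of Rara was near or below 16 at 5 weeks, with means of 12.3 ± 11.7, 13.7 ± 8.45 and 18.2 ± 9.97. No source used here states where these probes lie relative to the disrupted parts, so they check no label. Xist read 948 to 2169 on all 12 arrays at 5 weeks and 13.4 to 44.5 on all 10 at 14 weeks. The Y-linked Eif2s3y did the reverse, at 0.35 to 6.59 and 245 to 344. This is the pattern of female mice at 5 weeks and of male mice at 14 weeks. Age, the sex-linked pattern and the array set therefore cannot be told apart. At 5 weeks, animal 90WT and animal 6KO departed from their group means together (r = 0.715 over 8334 brighter genes), while the next most alike pair, animal 2WT and animal 8KO, had r = 0.383. The most alike pair at 14 weeks, animal liver_393WT and animal liver_395M, had r = 0.311. The members' median differences, spread and correlations are also given without animals 90WT and 6KO.

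MHC class II molecules carry peptides from ingested material to the cell surface, where CD4+ T cells read them. An alpha chain and a beta chain form the binding groove; the invariant chain Cd74 holds the groove closed until proteases such as Ctss cut it, and the H2-DM dimer then exchanges its remnant for a peptide. Transcription of these genes depends on Ciita, a coactivator that docks on RFX and NF-Y proteins bound to the X and Y boxes of their promoters, and interferon gamma raises Ciita, in part through Irf1. In liver, Kupffer cells, dendritic cells and B cells are the known main class II-bearing cells, while resting hepatocytes carry little.

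The promoters of 3 members are shown because they hold the X and Y boxes that such genes share. RefSeq (GRCm38.p6) gave a promoter of 250 bases before to 50 bases after the start of transcription for 4 member symbols, H2-Aa, H2-Eb1, H2-DMa and H2-DMb1. Capitals mark the core letters of the X box (GNAACT) and of the Y box (TGATTGG, the inverted CCAAT bound by NF-Y), which were chosen after the sequences had been seen. X box letters are in capitals only where they pair with a Y box, and other matches, on the reverse strand, are not marked. H2-Aa lies on the minus strand at chr17:34287774-34288073, H2-Eb1 on the plus strand at chr17:34305617-34305916, and H2-DMb1 on the plus strand at chr17:34152941-34153240.
H2-Aa: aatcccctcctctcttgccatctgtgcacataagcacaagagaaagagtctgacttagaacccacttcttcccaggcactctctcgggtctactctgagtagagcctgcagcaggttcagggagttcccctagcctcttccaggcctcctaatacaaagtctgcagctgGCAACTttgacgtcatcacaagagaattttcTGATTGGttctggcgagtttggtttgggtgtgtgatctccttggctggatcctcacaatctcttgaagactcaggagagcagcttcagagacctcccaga
H2-Eb1: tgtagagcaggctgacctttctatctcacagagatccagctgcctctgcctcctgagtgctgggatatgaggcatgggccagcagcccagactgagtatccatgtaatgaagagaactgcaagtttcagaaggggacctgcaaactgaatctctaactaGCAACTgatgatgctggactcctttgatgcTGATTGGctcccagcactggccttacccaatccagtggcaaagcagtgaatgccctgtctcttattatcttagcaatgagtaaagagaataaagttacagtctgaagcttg
H2-DMb1: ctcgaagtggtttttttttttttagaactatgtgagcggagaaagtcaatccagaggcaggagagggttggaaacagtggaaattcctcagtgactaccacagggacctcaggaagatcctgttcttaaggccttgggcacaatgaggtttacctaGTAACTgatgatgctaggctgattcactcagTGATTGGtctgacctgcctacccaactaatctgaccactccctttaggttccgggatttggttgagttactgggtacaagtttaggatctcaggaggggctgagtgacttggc
The Y box began 50 bases before the start in H2-Aa, 61 in H2-Eb1 and 63 in H2-DMb1, and the X box began 81, 91 and 94 bases before it, so that the boxes were 30 or 31 bases apart in each. Over both strands, the Y box letters occurred in 7.82% and the X box letters in 42.8% of all 32851 promoters of this length, and the pair at a distance of 28 to 34 bases on the same strand in 38 of them, or 0.116%. The RefSeq promoter of H2-DMb2, which shares probe sets with H2-DMb1, held the Y box letters alone, 92 bases before the start. Neither window of the 2 start sites listed for H2-DMa held the Y box letters, and the second held the X box letters once, beginning 29 bases after the start. A match of letters describes the sequence and says nothing here of factor binding.

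The chains of the binding groove varied widely between animals of 1 genotype at 5 weeks. H2-Aa, the alpha chain of the I-A molecule, read 544, 723, 475 and 1647 in animals 2WT, 44WT, 45WT and 90WT at 5 weeks. It read 539, 1402, 543 and 1441 in Trim24-/- animals 1KO, 6KO, 8KO and 37KO, and 870.2, 915, 727 and 834 in Trim24-/- Rara+/- animals 54R, 66R, 73R and 82R. Animal 90WT and animals 6KO and 37KO stood apart at the top, the other 5 animals of those groups lay below every Trim24-/- Rara+/- animal, and the groups overlapped. At 14 weeks the values were 727, 333, 339.7, 432 and 449 in animals liver_616WT, liver_611WT, liver_613WT, liver_464WT and liver_393WT, and 736, 697, 488, 540.3 and 1018 in Trim24-/- animals liver_648M, liver_466M, liver_463M, liver_411M and liver_395M. All 5 knockout animals were above 4 of the 5 WT animals, and animal liver_616WT lay among the knockouts. The group means were 847 ± 544, 981 ± 509 and 837 ± 80.3 at 5 weeks and 456 ± 160.3 and 696 ± 208 at 14 weeks (SD). In bulk liver, fewer cells of a type and less RNA per cell cannot be told apart.

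H2-Ab1, the beta chain that pairs with H2-Aa, had the same 3 highest animals at 5 weeks. Its signal was 239, 266, 226 and 579.8 in WT, 287, 508, 250.5 and 613.05 in Trim24-/-, and 327, 370.3, 339 and 369.7 in Trim24-/- Rara+/- animals, in the order of animals given for H2-Aa. At 14 weeks it was 253, 190.2, 154, 182 and 245 in WT and 399, 299, 238, 240.4 and 525 in Trim24-/- animals. The age groups differed in shape: at 5 weeks both WT and Trim24-/- split into low and high animals, while at 14 weeks the 3 highest values were all from knockouts. The means were 327 ± 169, 415 ± 175 and 351 ± 21.96 at 5 weeks and 205 ± 42.4 and 340.3 ± 122 at 14 weeks.

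H2-Eb1, the beta chain of the I-E molecule, read 283, 275, 218 and 1020.1 in WT, 300.5, 842, 228 and 829 in Trim24-/-, and 469.6, 514, 393.3 and 504 in Trim24-/- Rara+/- animals at 5 weeks. On the log2 scale, and as a share of the group's range, animal 90WT stood farther from the other WT animals for this gene than for the other 5 members with a probe set of their own. At 14 weeks it read 498, 212, 211, 276 and 324 in WT and 534, 525, 341, 378 and 679.6 in Trim24-/- animals, again with every knockout above 4 of the 5 WT animals. The means were 449 ± 382, 550.0 ± 331 and 470.2 ± 54.7 at 5 weeks and 304 ± 118 and 491 ± 136 at 14 weeks.

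Cd74, the invariant chain, followed the binding chains animal by animal. It read 479, 551, 402 and 1607 in WT, 540.3, 1476, 448 and 1629.8 in Trim24-/-, and 951, 986, 815 and 792 in Trim24-/- Rara+/- animals at 5 weeks. The 4 Trim24-/- Rara+/- animals filled the space between the low and the high animals of the other genotypes. At 14 weeks Cd74 read 965, 441, 423, 482 and 511 in WT and 929, 777, 687, 618 and 1055 in Trim24-/- animals. Animal liver_616WT was the second highest of all 10 animals of that age, and the other 4 WT animals lay below every knockout. The means were 759.7 ± 568, 1024 ± 615.7 and 886 ± 97.0 at 5 weeks and 564 ± 227 and 813 ± 178 at 14 weeks.

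The peptide exchange chains had the same 3 highest animals at 5 weeks. H2-DMa, the alpha chain of H2-DM, read 62.8, 60.1, 22.6 and 113 in WT, 40.0, 111, 45.7 and 157 in Trim24-/-, and 81.4, 74.0, 75.4 and 47.6 in Trim24-/- Rara+/- animals at 5 weeks. At 14 weeks it read 77.4, 58.5, 52.2, 32.8 and 61.5 in WT and 74.1, 53.8, 55.3, 63.5 and 75.8 in Trim24-/- animals, and here the Trim24-/- range lay within the WT range. The shared H2-DMb1 and H2-DMb2 probe set 1418638_at read 27.2, 22.2, 13.6 and 49.8 in WT, 21.4, 60.6, 24.1 and 77.0 in Trim24-/-, and 25.1, 31.7, 40.3 and 28.8 in Trim24-/- Rara+/- animals. Its highest 3 of 12 animals were once more animal 90WT and animals 37KO and 6KO. At 14 weeks it read 14.1 to 20.5 in WT and 15.4 to 34.5 in Trim24-/- animals. The other shared probe set, 1449580_s_at, read 14.4 to 73.05, 28.2 to 87.9 and 27.0 to 38.8 at 5 weeks and 10.7 to 54.6 and 17.6 to 72.0 at 14 weeks. Neither can say which of the H2-DMb genes it measured.

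Ciita was too dim to follow. Its brightest probe set read 16.2, 17.8, 3.03 and 27.1 in WT, 8.88, 25.6, 2.57 and 5.92 in Trim24-/-, and 10.5, 12.6, 9.54 and 15.1 in Trim24-/- Rara+/- animals at 5 weeks. It was below 16 on 11 of the 22 arrays, and the other 2 Ciita probe sets were below 16 on 18 and on 22 arrays. At 14 weeks the brightest one read 4.18 to 32.2 in WT and 8.42 to 26.5 in Trim24-/- animals. Animal 37KO, among the highest for the presentation genes, read 5.92 for Ciita, at a brightness where the array gives little information on rank.

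**Figure D1:**
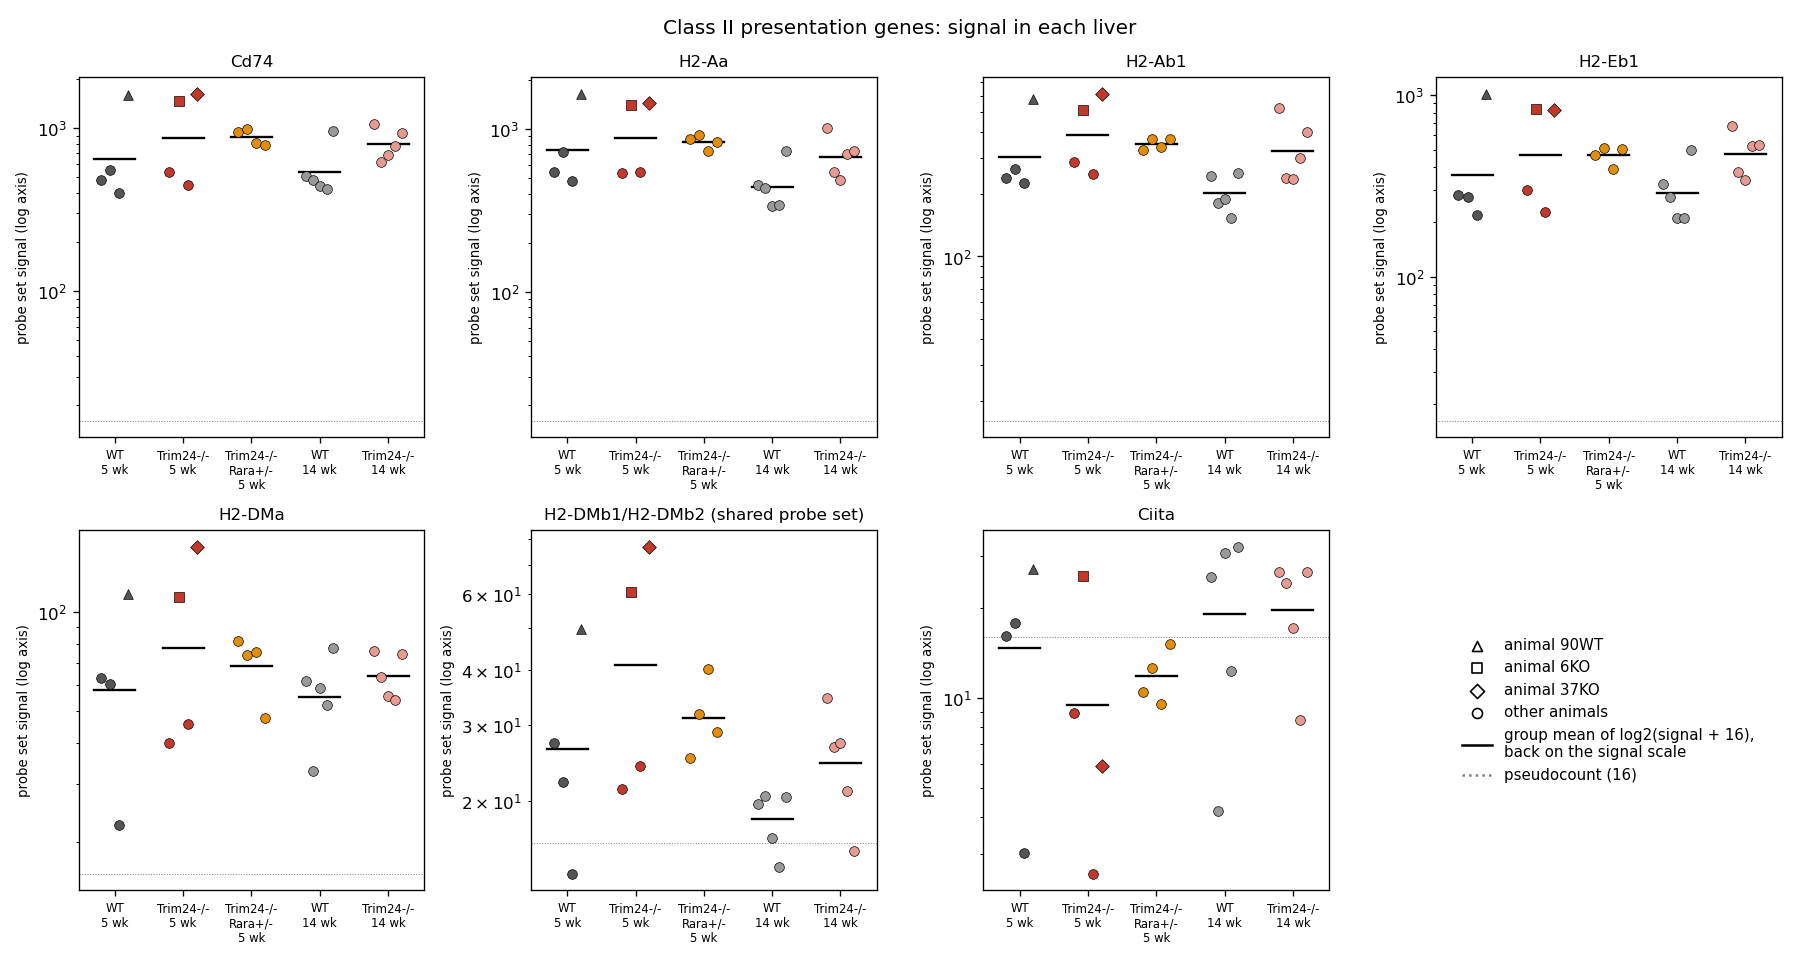
Signal of each member in each animal on a log axis, by genotype and age, with each point 1 animal and each bar the group mean. At 5 weeks animal 90WT and animals 6KO and 37KO stand above the rest for H2-Aa, H2-Ab1, H2-Eb1, Cd74 and H2-DMa, and at 14 weeks the Trim24-/- animals lie higher than 4 of the 5 WT animals for Cd74, H2-Aa and H2-Eb1.

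In WT and Trim24-/- mice at 5 weeks, the 5 brighter members varied between animals more than most of the brighter genes did. The SD over animals on the log2 scale was 0.88 for Cd74, 0.79 for H2-Aa, 0.61 for H2-Ab1, 0.97 for H2-Eb1 and 0.72 for H2-DMa in WT at 5 weeks, against a median of 0.20 over the 8334 brighter genes. These SDs lay at percentiles 95.9 to 99.0 of those genes, and so did those of Trim24-/- at 5 weeks, at 0.60 to 0.95. In Trim24-/- Rara+/- animals they were 0.16, 0.14, 0.09, 0.17 and 0.28, at percentiles 20.2 to 88.6, where the median gene had 0.14. The highest Cd74 signal was 4.0 times the lowest in WT, 3.64 times in Trim24-/- and 1.25 times in Trim24-/- Rara+/- animals. At 14 weeks the SDs were 0.28 to 0.49 in WT and 0.18 to 0.47 in Trim24-/- animals. The difference in spread between genotypes was not tested, and each group had 4 animals. Without animals 90WT and 6KO, the SDs were 0.11 to 0.58 in the other 3 WT animals, at percentiles 27.9 to 97.1, and 0.67 to 0.99 in the other 3 Trim24-/- animals, at percentiles 97.8 to 99.4. In WT the highest of these was H2-DMa, at 0.58.

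**Figure D2:**
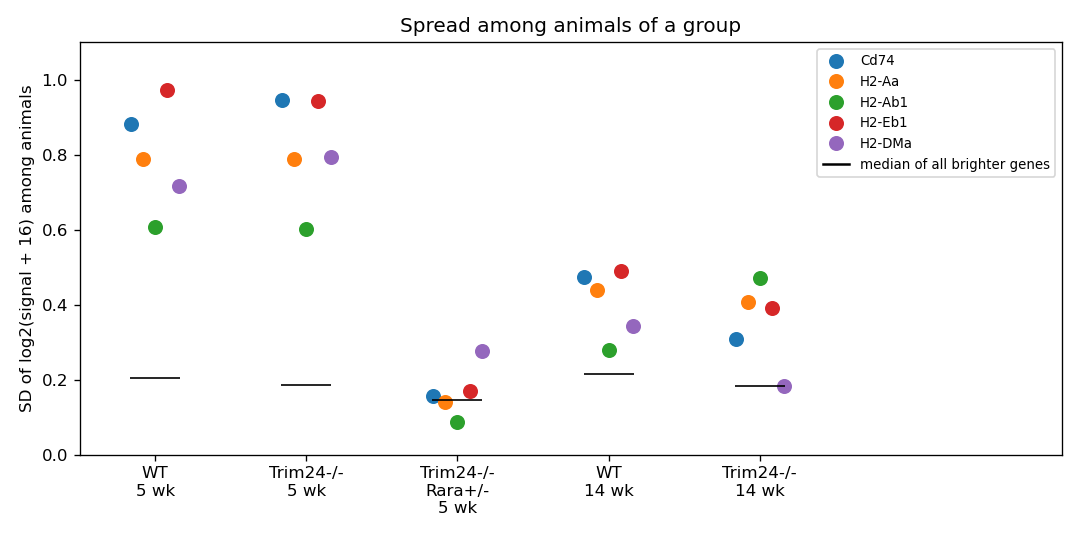
SD over the animals of a group, on the log2(signal + 16) scale, for Cd74, H2-Aa, H2-Ab1, H2-Eb1 and H2-DMa (points), beside the median SD of the 8334 brighter genes in that group. The members' SDs are 0.60 to 0.97 in the WT and Trim24-/- groups at 5 weeks and 0.09 to 0.28 in Trim24-/- Rara+/-.

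Nearly all neighbours in the order of the 5 groups lay within their spread. The mean of Cd74, H2-Aa, H2-Ab1, H2-Eb1 and H2-DMa on the log2 scale was 8.41 ± 0.77, 8.75 ± 0.81 and 8.68 ± 0.10 at 5 weeks (WT, Trim24-/- and Trim24-/- Rara+/-), and 8.02 ± 0.37 in WT and 8.56 ± 0.34 in Trim24-/- at 14 weeks (SD). WT at 14 weeks was the lowest group for all 5 genes. For H2-Aa it was 8.83 against 9.43 in Trim24-/- at 14 weeks, a step of 0.60 where the larger SD was 0.44. That was the only step between neighbours, over the 6 members with a probe set of their own, that exceeded the larger SD of its groups.

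Loss of Trim24 at 5 weeks moved no member past the test. Both genotypes held low and high animals, and 2 of the 4 Trim24-/- animals were above the WT mean for each of the 5 brighter members. The mean difference, Trim24-/- minus WT, was 0.43 ± 0.45 for Cd74 (SE, n = 4 against 4, 95% interval -0.55 to 1.42, limma adjusted p = 0.790), a range that includes a fall as well as a rise. It was 0.23 ± 0.39 for H2-Aa, 0.34 ± 0.31 for H2-Ab1, 0.35 ± 0.48 for H2-Eb1, 0.34 ± 0.39 for H2-DMa and -0.27 ± 0.26 for Ciita, with adjusted p of 0.747 to 0.888. By limma 0 of 6 members were called at an adjusted p of 0.05 and 0 at an unadjusted p of 0.05, where 0.599% and 10.8% of the 18194 genes tested were. The median over the 6 was 0.34, and that of all genes -0.01. The value depended on single animals: the median became 0.62 when animal 90WT was left out and 0.07 when animal 45WT was, and leaving out animal 6KO or 37KO gave 0.13 or 0.06. Without animal 90WT and animal 6KO together it was 0.49. Of the 16 probe sets, 13 had a positive difference (44.6% of all did), from -0.31 to 0.72 over all 16, 0 were called (0.233% of all probe sets were), and 1 had an unadjusted p below 0.05 (8.85% of all). Several probe sets share a gene, so these counts are not of separate observations.

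No member differed past the test between Trim24-/- Rara+/- and WT animals. Trim24-/- Rara+/- minus WT was 0.44 ± 0.45 for Cd74, 0.16 ± 0.39 for H2-Aa, 0.20 ± 0.31 for H2-Ab1, 0.34 ± 0.48 for H2-Eb1, 0.19 ± 0.39 for H2-DMa and -0.14 ± 0.26 for Ciita (SE, n = 4 against 4, limma adjusted p of 0.892 to 0.961). None of the 6 members was called, 0 had an unadjusted p below 0.05 by limma, and 0.055% and 7.44% of all genes did so. The median of 0.20 became 0.52 without animal 90WT, alone or together with animal 6KO, and 0.01 without animal 45WT. All 4 Trim24-/- Rara+/- animals were above animals 2WT, 44WT and 45WT for Cd74, H2-Aa, H2-Ab1 and H2-Eb1 and below animal 90WT.

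Removal of 1 Rara allele in Trim24-/- mice gave differences close to 0 with wide intervals. Trim24-/- Rara+/- minus Trim24-/- was 0.01 for Cd74 (95% interval -0.98 to 0.99), -0.07 for H2-Aa (-0.93 to 0.78), -0.14 for H2-Ab1 (-0.80 to 0.52), -0.01 for H2-Eb1 (-1.04 to 1.02), -0.14 for H2-DMa (-0.98 to 0.70) and 0.13 for Ciita (-0.43 to 0.69). The intervals leave room for differences of either sign. By limma 0 of 6 members were called (0.143% of all genes were) and 0 had an unadjusted p below 0.05 (11.5% of all). The median, -0.04, was 0.20 without animal 6KO, with or without animal 90WT, 0.16 without animal 37KO, -0.25 without animal 1KO and -0.32 without animal 8KO, so its sign followed which Trim24-/- animals were counted. Over the 5 comparisons of one group with another, the groups of a member probe set failed to overlap in 1 case, Ciita 1447075_at, lower in Trim24-/- Rara+/- than in Trim24-/- (-0.36, adjusted p = 0.356), a probe set below 16 on every array, where 3.64% of all probe sets were lower without overlap. These 3 comparisons at 5 weeks share animals, so their values are not independent of each other.

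At 14 weeks the binding chains and Cd74 were higher on average in Trim24-/- than in WT livers, without passing the test over all genes. Trim24-/- minus WT was 0.60 ± 0.23 for H2-Aa (a fold of 1.52, unadjusted p = 0.0245, adjusted p = 0.508 by limma), 0.65 ± 0.22 for H2-Ab1 (1.57, 0.0114 and 0.387) and 0.69 ± 0.24 for H2-Eb1 (1.62, 0.0149 and 0.436). For Cd74 it was 0.56 ± 0.22 (a fold of 1.47, unadjusted p = 0.0276, adjusted p = 0.527; SE, n = 5 against 5 throughout). All 5 knockout animals were above the WT mean for each of these 4 genes, and the groups overlapped through animal liver_616WT alone for Cd74, H2-Aa and H2-Eb1 and through animals liver_616WT and liver_393WT for H2-Ab1. The exchange chain H2-DMa differed by 0.17 ± 0.17 (adjusted p = 0.846) and Ciita by 0.03 ± 0.25 (adjusted p = 0.991). So 0 of 6 members were called, where 0.242% of all genes were. At an unadjusted p below 0.05 there were 4 of 6, all higher, where 8.23% of all genes passed in either direction and 4.66% upward. That count was 1 when all 22 arrays were fitted together and 2 without animal liver_611WT, liver_613WT or liver_395M. The 4 genes are not separate observations, as they departed from their group means together. Within the 14-week arrays each had r of 0.85 to 0.95 with the mean of the other brighter members. The median over the 6 was 0.58, against 0.00 over all genes. It ranged from 0.46 without animal liver_395M to 0.74 without animal liver_616WT when 1 animal was left out.

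All probe sets of the binding chains had positive differences at 14 weeks. Of 16, 15 had a positive difference (48.5% of all did), 0 were called (0.124% of all probe sets were), and 7 had an unadjusted p below 0.05 (7.21% of all): 2 of H2-Aa, 3 of H2-Ab1 and 1 each of H2-Eb1 and Cd74. The 3 H2-Ab1 probe sets read 0.76, 0.65 and 0.64. The second H2-Aa probe set, 1438858_x_at, had the smallest p among the members (0.73, unadjusted p = 0.00425, adjusted p = 0.395), with signals of 107 to 233 in WT and 206 to 380.2 in Trim24-/- animals. The shared H2-DMb probe sets differed by 0.25 and 0.52. Several probe sets share a gene and the genes rose and fell together, so the counts over the 16 are not of separate observations.

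**Figure D3:**
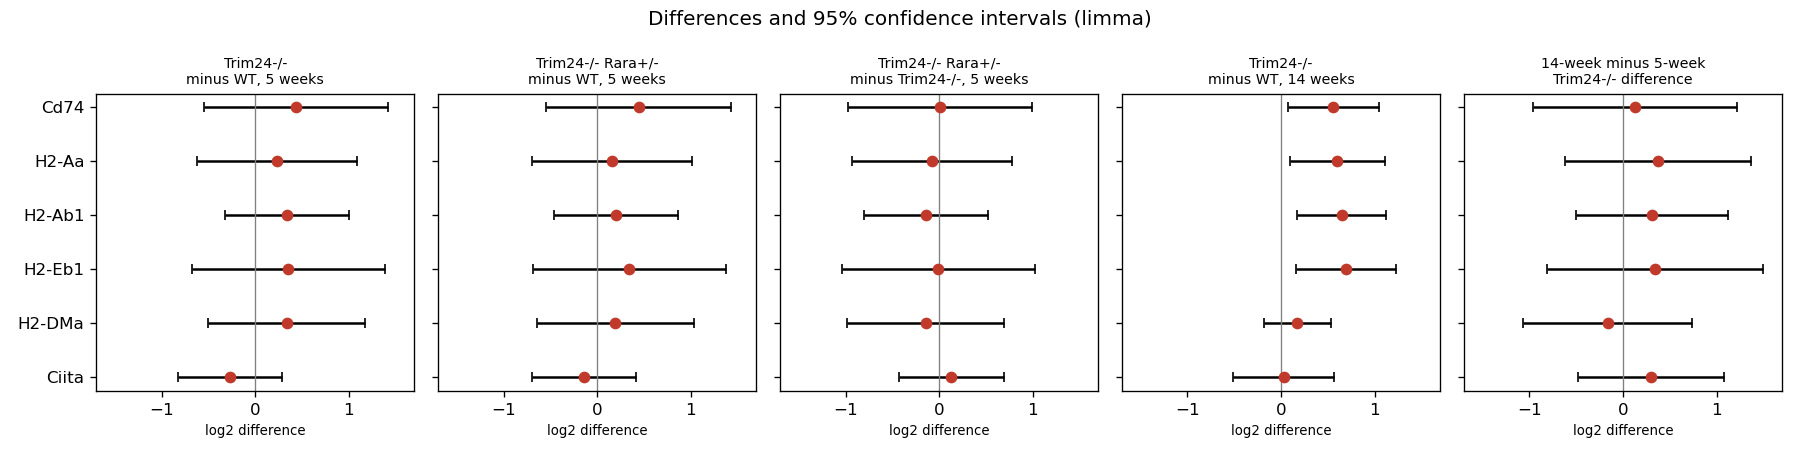
Difference of each member with its 95% interval on the log2(signal + 16) scale, for the comparisons of genotype at 5 and 14 weeks. At 5 weeks every interval includes 0, and at 14 weeks those of Cd74, H2-Aa, H2-Ab1 and H2-Eb1 lie above 0 while 0 of 6 members pass the adjusted threshold.

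Whether the effect of Trim24 loss differed with age could not be decided for these genes. Age in this contrast also cannot be told apart from the sex-linked pattern and the array set. The difference at 14 weeks minus that at 5 weeks was 0.12 ± 0.53 for Cd74, 0.37 ± 0.48 for H2-Aa, 0.31 ± 0.39 for H2-Ab1, 0.34 ± 0.56 for H2-Eb1, -0.16 ± 0.43 for H2-DMa and 0.30 ± 0.38 for Ciita (SE, limma adjusted p of 0.950 to 0.986). By limma 0 of 6 were called (0.033% of all genes were) and 0 had an unadjusted p below 0.05 (6.39% of all). The median of 0.30 became -0.07 without animal 90WT and 0.13 without animals 90WT and 6KO together.

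Among WT livers the members were lower on average at 14 than at 5 weeks, and the sign of their median depended on 1 animal. Age in this comparison cannot be told apart from the sex-linked pattern and the array set. The difference, 14 weeks minus 5 weeks, was -0.75 ± 0.34 for H2-Aa (SE, n = 5 against 4, unadjusted p = 0.0377, limma adjusted p = 0.102), -0.55 for H2-Ab1, -0.32 for H2-Eb1, -0.26 for Cd74, -0.06 for H2-DMa and 0.19 for Ciita. No member was called, although 28.3% of all genes were, and 1 of 6 had an unadjusted p below 0.05 (39.8% of all). The median was -0.29 where that of all genes was 0.13, and it became 0.17 without animal 90WT. Without that animal 4 of the 6 differences were positive, among them Cd74 (0.18), H2-Eb1 (0.16) and H2-DMa (0.21). H2-Aa (-0.37) and H2-Ab1 (-0.25) were still lower at 14 weeks. Relative to each array's median, H2-Aa (-1.07, adjusted p = 0.0140) and H2-Ab1 (-0.88, adjusted p = 0.0129) were both called lower, and without animal liver_616WT H2-Aa was (-0.93, adjusted p = 0.0495). The share of all genes called under these settings is not given here. With 28.3% called in the main fit, these calls are not read as particular to the members. Among the 16 probe sets, 1 was called, Ciita 1421211_a_at (0.52 ± 0.15, adjusted p = 0.0153), and 23.3% of all probe sets were. Its signals were 2.67 to 6.63 at 5 weeks and 4.93 to 17.1 at 14 weeks, on arrays whose median signal also differs between the ages.

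The other genes of the class II pathway gave no call between genotypes either. Of 20 listed, 17 were measured, and 0 were called in any comparison of genotype by limma. At an unadjusted p below 0.05 there were 2 higher and 1 lower for Trim24-/- against WT at 5 weeks, 0 for Trim24-/- Rara+/- against WT, 2 and 2 for Trim24-/- Rara+/- against Trim24-/-, and 2 higher at 14 weeks, where 10.8%, 7.44%, 11.5% and 8.23% of all genes passed in either direction. The medians were 0.16, 0.10, -0.14 and 0.08. Rfx5, a subunit of the RFX complex that binds the X box, read 75.4, 56.3, 57.9 and 132 in WT, 195, 158, 170.5 and 96.3 in Trim24-/-, and 71.3, 69.9, 89.7 and 63.99 in Trim24-/- Rara+/- animals at 5 weeks. It differed by 0.85 ± 0.23 for Trim24-/- against WT (SE, n = 4 against 4, limma adjusted p = 0.160) and by -0.90 ± 0.23 for Trim24-/- Rara+/- against Trim24-/- (adjusted p = 0.142, groups not overlapping, as for 5.13% of all genes in that direction). Its lowest Trim24-/- animal was 37KO, one of the highest for the binding chains. Ctss, the protease that cuts the invariant chain, differed by 0.50 ± 0.32 at 5 weeks (adjusted p = 0.613) and 0.38 ± 0.18 at 14 weeks (adjusted p = 0.628). In WT at 14 against 5 weeks, 4 of the 17 were called, where 28.3% of all genes were. Rfxank, another RFX subunit (0.95, adjusted p = 0.000525), Nfya, a subunit of NF-Y (0.44, adjusted p = 0.0356), and H2-Eb2 (0.69, adjusted p = 0.0426) rose. Nfya no longer passed without animal 2WT, 45WT, 90WT, liver_611WT, liver_613WT or liver_393WT in turn, nor H2-Eb2 without animal 44WT, 45WT, 90WT, liver_611WT, liver_613WT or liver_464WT, and neither passed with each array centred on its median. Ctsl, a lysosomal protease, fell by 0.42 (adjusted p = 0.00391), and the mean of all its probe sets gave 0.39 in the other direction.

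The interferon gamma list holds the receptor and its kinases, factors that induce Ciita, and targets such as Cxcl9, Cxcl10 and Nlrc5, and no gene of it was called between genotypes. Of 13 listed, 12 were measured, and for Trim24-/- against WT at 5 weeks 6 had an unadjusted p below 0.05, all higher (6.11% of all genes did so), and the median was 0.36. Irf1, a transcription factor that drives Ciita, read 215, 272, 261 and 258 in WT, 487, 322, 311 and 389 in Trim24-/-, and 259.6, 255, 199.7 and 265 in Trim24-/- Rara+/- animals. All 4 Trim24-/- animals were above every other animal of that age (3% of all genes were higher without overlap in Trim24-/- than in WT). This held whether the class II signal of these animals was low or high. The difference was 0.54 ± 0.15 for Trim24-/- against WT (SE, limma adjusted p = 0.156), -0.58 ± 0.15 for Trim24-/- Rara+/- against Trim24-/- (adjusted p = 0.133), -0.04 ± 0.15 for Trim24-/- Rara+/- against WT (adjusted p = 0.976) and 0.29 ± 0.13 for Trim24-/- against WT at 14 weeks (adjusted p = 0.590). Ifng itself was below 16 on all 22 arrays.

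Among the MHC class I and immunoproteasome genes, which serve peptides from the cytosol, 3 rose in Trim24-/- mice at 5 weeks, and whether this list differed from the class II genes was not tested. Of 13 listed, 12 were measured, and 3 were called higher in Trim24-/- than in WT at 5 weeks (0.473% of all genes were), while 8 had an unadjusted p below 0.05, all higher (6.11% of all), and all 12 were positive (47.9% of all genes were). They were Psmb9, an immunoproteasome subunit (1.39 ± 0.17, adjusted p = 0.00341), Tap1, a chain of the peptide transporter (1.41 ± 0.23, adjusted p = 0.0194), and Psmb8, a further immunoproteasome subunit (1.01 ± 0.19, adjusted p = 0.0387; SE, n = 4 against 4, limma). Psmb9 read 170.1, 141, 129 and 149 in WT, 499, 296, 429.9 and 444 in Trim24-/-, and 214, 207, 281 and 174 in Trim24-/- Rara+/- animals, so that the genotypes did not overlap. Without overlap, 3% of all genes were higher in Trim24-/- than in WT. In Trim24-/- Rara+/-, 5.13% were lower than in Trim24-/- and 1.98% higher than in WT. The lowest Trim24-/- animal for Psmb9 was 6KO, among the highest for class II, and animal 90WT was unremarkable at 149. Tap1 was lower in Trim24-/- Rara+/- than in Trim24-/- (-1.52 ± 0.23, adjusted p = 0.0275), as 0.104% of all genes were. Over 24 other settings each, the calls of Tap1 and Psmb8 against WT were lost in 6 and 12, and that of Tap1 against Trim24-/- in 8. Without animal 45WT, 1KO or 8KO in turn, neither call against WT passed, and without animal 1KO, 8KO, 54R, 66R or 82R in turn Tap1 did not pass against Trim24-/-. The call of Psmb8 was also lost without animal 44WT, 37KO, 54R, 66R or 82R. At 14 weeks the class I median was -0.01 with 0 called and 2 with an unadjusted p below 0.05 (8.23% of all genes), where the class II median was 0.58.

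The likeness of other genes to the members was measured by how animals departed from their own group means. The 5 members with a mean log2 level over 6 were averaged, and each gene's deviations were correlated with theirs over the 22 arrays, which share the RNA, scaling and brightness of each animal, so that r is given as a description. Each member, set against the mean of the other 4, had r of 0.98 for Cd74, 0.97 for H2-Aa and H2-Eb1, 0.93 for H2-Ab1 and 0.82 for H2-DMa. The 10 genes most like them among 8334 were Slc11a1 (0.902), Tyrobp (0.897), Chka (0.892), Clec4n (0.891), Itgb2 (0.879), Clec4f (0.870), Csf1r (0.867), Hsd17b13 (0.855), Tmsb4x (0.851) and Itgal (0.844). Slc11a1 is a metal transporter of macrophage phagosomes, Tyrobp a signalling adaptor of myeloid receptors, Clec4n and Clec4f C-type lectins of myeloid and Kupffer cells, Csf1r the receptor for the macrophage growth factor, and Itgb2 and Itgal the chains of a leukocyte integrin. Chka, a choline kinase, and Hsd17b13, a lipid droplet protein of hepatocytes, are not leukocyte genes. Without the 2 animals farthest from the median, animal 90WT and animal 37KO, r for these 10 genes was 0.759 to 0.891, and without animals 90WT and 6KO it was 0.723 to 0.859.

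Clec4f, a defining lectin of mouse Kupffer cells, read 506, 604, 488 and 1218 in WT, 449, 1149.6, 555 and 1223 in Trim24-/-, and 609, 678, 976 and 563 in Trim24-/- Rara+/- animals at 5 weeks. The 3 animals with the highest class II signal were the 3 highest for Clec4f as well. At 14 weeks it read 712, 531, 495, 610.8 and 690.0 in WT and 821, 911, 835, 575 and 1053 in Trim24-/- animals. Csf1r read 1335, 1319, 1193 and 1926 in WT, 898, 1815, 913 and 2228 in Trim24-/-, and 1264, 1312, 1588 and 1435 in Trim24-/- Rara+/- animals, with the same 3 at the top. Both genes are among the 10 chosen for likeness to the members over these same arrays. Their sharing of the top 3 animals is therefore no separate observation.

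The Kupffer cell and macrophage markers also stood higher on average in Trim24-/- livers at 14 weeks. All 16 were measured, and their summed signal was 4425 to 5760.1 in WT and 5189 to 9794 in Trim24-/- animals of that age. By limma 0 of 16 were called, 9 had an unadjusted p below 0.05, all higher (4.66% of all genes), 15 were positive (50.3% of all genes were), and the median was 0.43. Vsig4, a complement receptor of Kupffer cells (0.61 ± 0.15, adjusted p = 0.170), and Cd5l, a secreted macrophage protein (0.51 ± 0.17, adjusted p = 0.401), had groups that did not overlap, where 1.78% of all genes did so in either direction. Animal liver_616WT and animal liver_395M had the highest summed signal of their groups, as they did for the mean class II level. At 5 weeks the sum was 6323, 5893, 4962 and 9914 in WT, 6666, 10299, 6813 and 13224 in Trim24-/-, and 7073, 7809, 10821 and 6629 in Trim24-/- Rara+/- animals. Animal 73R had the second highest sum of the 12 and the lowest mean class II level of its own group. For Trim24-/- against WT at 5 weeks, 13 of the 16 markers were positive (47.9% of all genes were), with a median of 0.28. By limma 4 were higher and 1 lower at an unadjusted p below 0.05, where 10.8% of all genes passed in either direction. For 3 of the 16 the groups did not overlap, all higher, as for 3% of all genes. In WT at 14 against 5 weeks, 4 of the 16 were called by limma, all lower, as 8.63% of all genes were. They were Csf1r, Msr1, Vsig4 and Marco, and their calls were lost in 3, 4, 8 and 9 of 33 other settings. Age there cannot be told apart from the sex-linked pattern and the array set. No summed level was at 0, and the part of these markers in the class II values was not tested.

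The macrophage markers differed among themselves in how they went with the members. Mpeg1, a pore-forming protein of macrophages, was the only marker of that list called at 5 weeks (1.69 ± 0.30, SE, n = 4 against 4, limma adjusted p = 0.0275), and its call was lost in 6 of 24 other settings, among them without animal 2WT, 44WT, 45WT, 1KO or 8KO in turn. It read 308, 256, 233 and 377 in WT, 1364, 749, 909.6 and 943 in Trim24-/-, and 268, 295, 748 and 257 in Trim24-/- Rara+/- animals. All 4 Trim24-/- animals were high, with the top value in animal 1KO, which was low for class II. Its r with the members was 0.174 when all 22 arrays were used, -0.0020 within the 5-week arrays and 0.624 within the 14-week arrays. That of Marco, a scavenger receptor of macrophages, was -0.171 with all arrays, -0.679 within the younger and 0.686 within the older ones, and 0.328 when animals 90WT and 6KO were left out. The other 14 markers of the list ranged from 0.367 for Msr1, 0.399 for Cd163, 0.462 for Cd5l and 0.598 for Timd4 to 0.842 for C1qb, 0.843 for Lyz2 and 0.870 for Clec4f, and Cd163 was at -0.353 at 14 weeks. Among the pathway, interferon and class I genes, r was 0.776 for Irf8, 0.724 for Ctss and 0.677 for Ifi30, but 0.0913 for Rfx5, -0.0031 for Irf1, -0.201 for Psmb9 and -0.025 for Tap1.

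**Figure D4:**
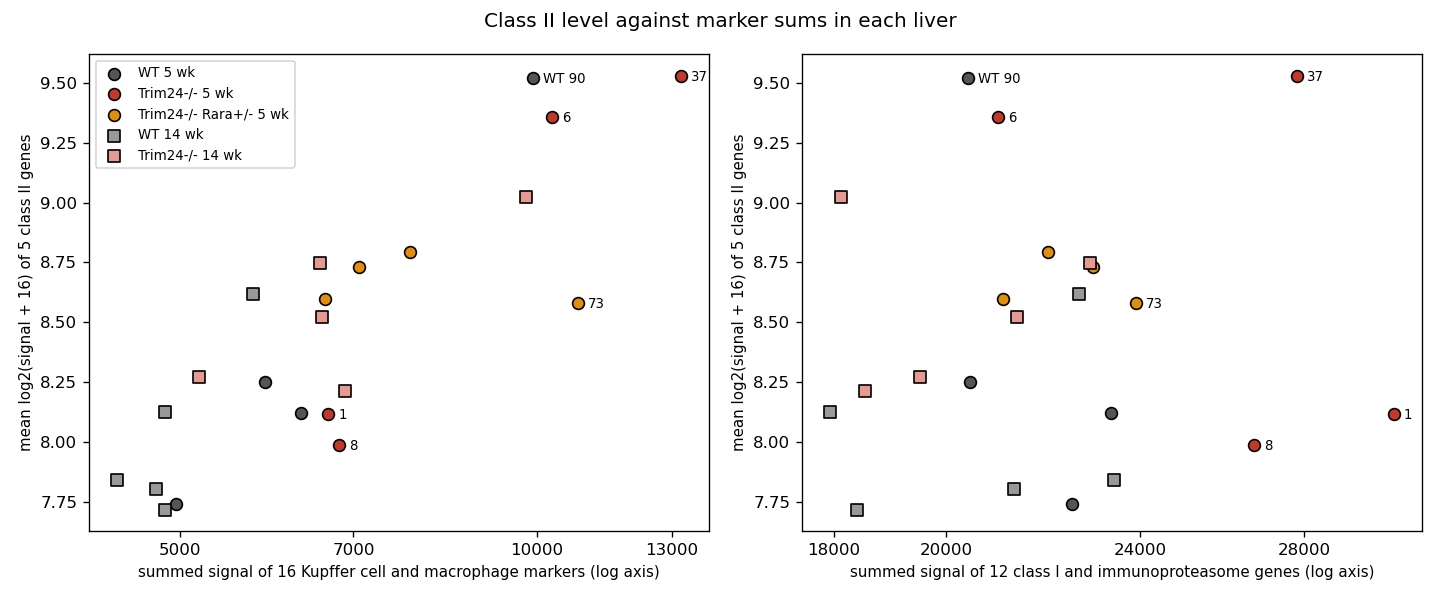
Mean log2 level of Cd74, H2-Aa, H2-Ab1, H2-Eb1 and H2-DMa in each animal against the summed signal of the 16 macrophage markers, and against that of the class I and immunoproteasome genes, with each point 1 animal marked by group. Animals 6KO and 37KO and animal 90WT are high for both class II and macrophage markers, while animal 1KO has the highest class I sum (30458) with a low class II level.

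Markers of B cells and dendritic cells, other class II-bearing cells, were dim. Of 11 B cell markers 9 were measured, and their summed signal was 68.8 to 179 in WT, 188 to 267 in Trim24-/- and 129 to 196 in Trim24-/- Rara+/- animals at 5 weeks, and 223 to 427 and 298 to 874 at 14 weeks. The Trim24-/- range at 5 weeks lay above the WT range. The brightest, Ighm, the heavy chain of IgM, differed by 1.62 ± 0.42 for Trim24-/- against WT at 5 weeks (SE, limma adjusted p = 0.142), and the defining markers Cd79a and Ms4a1 were below 16 on 13 and 7 of the 22 arrays. Of 11 dendritic cell markers 10 were measured, with sums of 101 to 129, 107 to 199 and 115 to 136 at 5 weeks and 159 to 224 and 155 to 305 at 14 weeks, the brightest being Batf3 and Zbtb46, and Ccr7 was below 16 on all 22 arrays. Of 12 T and NK cell markers 10 were measured, the brightest being Gzma and Cd8a, and 8 were below 16 on at least 11 arrays. The median difference for Trim24-/- against WT was 0.18 for B cell, 0.05 for dendritic cell and 0.19 for T and NK cell markers at 5 weeks, and 0.04, 0.08 and 0.08 at 14 weeks, with 0 called in each by limma and 2, 2 and 2 genes at an unadjusted p below 0.05 at 5 weeks and 2, 2 and 0 at 14 weeks, where 10.8% and 8.23% of all genes passed. The 11 sinusoidal endothelial markers, led by Clec4g and Fcgr2b, were not dim and had medians of -0.11 and 0.11. Their r with the members ranged from -0.0373 for Fcgr2b to 0.733 for Mrc1, with 0.589 for Pecam1 and 0.476 for Lyve1. Within the 14-week arrays it was 0.925 for Lyve1, 0.288 for Pecam1 and 0.105 for Mrc1. Hepatocyte markers had medians of -0.10 and -0.13, and their r with the members was -0.102 to 0.258. The part of these markers in the class II values was not tested.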

How the data were processed

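Array intensities of 45101 probe sets were used as deposited by the authors in the series' value table, on a linear scale, with software not given in the sources used here. The 2% trimmed mean of every array was 100.001. Per the labels' protocols, 100 ng of total RNA per liver was amplified in successive rounds before labelling. Of 35890 probe sets named by the platform annotation, 34958 had 1 symbol and 932 several. Each of 18194 genes was represented by its probe set of highest mean signal and tested as log2(signal + 16) with limma 3.58.1 (lmFit, eBayes) in R 4.3.3, on 12 arrays at 5 weeks, 10 at 14 weeks, and all 22 across ages, with Benjamini-Hochberg adjustment over all genes or, for probe sets, over all probe sets. A gene was called at an adjusted p under 0.05. Leaving out each animal, the pseudocount, normalisation, filter, probe set rule, variance trend, array weights and arrays of the fit were varied. The members and lists were chosen with earlier results of these data known, and the removal of animal 90WT with animal 6KO, from differences, spread and correlations, after the values were seen. Named genes are the members; per list and comparison, up to 4 called genes by smallest adjusted p; the 2 brightest of each marker list; Irf1; and the 10 genes most like the members. Others (Rfx5, Ctss, Mpeg1, Vsig4, Ifng, Ccr7, Cd79a, Ms4a1 and those listed with a correlation) were named after their values were seen. Precision is limited by the number of arrays, each 1 animal. The fit was tested on simulated data. No 2 arrays held identical values.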

Additional observations from a re-analysis of the deposited data

Results flagged for a closer look

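In 3 of 40 groups of values examined, an animal stood apart from the rest of its group by a gap that took up most of the group's range, and chance alone marks about 1 in 20 such groups. For H2-Eb1 in WT at 5 weeks, the gap between animal 90WT and the next animal was 0.836 of the range, above Dixon's 95% critical value for 4 animals. For H2-Ab1 in the same group, animal 90WT stood apart by 0.830 of the range. For Cd74 in WT at 14 weeks, animal liver_616WT stood apart by 0.774 of the range, above the critical value for 5 animals.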

How the results depend on the processing

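Differences are on the log2 scale. By limma, the count of members called was 0 in every genotype comparison and in the difference between ages under every alternative run. For WT at 14 against 5 weeks it was 2 with each array centred on its median, and 0 to 1 when 1 animal was left out. The main fit of that comparison called 28.3% of all genes. Sign changes were met in values near 0 or with wide intervals, and where they are listed the cause was not tested. For Trim24-/- Rara+/- against Trim24-/-, Cd74 was -0.0024 with a pseudocount of 64 and -0.025 after quantile normalisation, H2-Eb1 was 0.0025 with centred arrays, H2-DMa was 0.087 and Ciita -0.10 over the mean of all probe sets, and array weights gave 0.16 for H2-Aa, 0.018 for H2-Ab1, 0.27 for H2-Eb1 and 0.090 for H2-DMa. For Trim24-/- Rara+/- against WT, Irf1 was 0.023 with centred arrays. For Trim24-/- against WT at 14 weeks, Ciita was -0.019 over the mean of its probe sets. For the difference between ages, H2-DMa was 0.15 over the mean of its probe sets and 0.068 with array weights, and the shared H2-DMb probe set 1449580_s_at was 0.032 with a pseudocount of 1, 0.023 after quantile normalisation and 0.10 with array weights. For WT at 14 against 5 weeks, Ciita was -0.054 after quantile normalisation and -0.13 with centred arrays, and the mean of all probe sets gave 0.14 for H2-DMa and 0.39 for Ctsl. Without animal 90WT and animal 6KO together, Ciita was 0.021 for Trim24-/- Rara+/- against WT. That removal gave 0.15 for H2-Aa, 0.26 for H2-Eb1 and 0.0030 for H2-DMa for Trim24-/- Rara+/- against Trim24-/-, and -0.06 for Cd74 in the difference between ages. For WT at 14 against 5 weeks it gave 0.18 for Cd74, 0.16 for H2-Eb1, 0.21 for H2-DMa and 0.20 for 1449580_s_at. Leaving out each animal in turn gave these ranges. For Trim24-/- against WT at 5 weeks H2-Aa ranged from -0.0035 to 0.61. For Trim24-/- Rara+/- against WT the ranges were -0.055 to 0.53 for H2-Aa, -0.12 to 0.46 for H2-DMa, -0.018 to 0.37 for the shared probe set 1418638_at, -0.37 to 0.021 for Ciita and -0.11 to 0.049 for Irf1. For Trim24-/- Rara+/- against Trim24-/- they were -0.31 to 0.30 for Cd74, -0.30 to 0.16 for H2-Aa, -0.34 to 0.075 for H2-Ab1, -0.34 to 0.26 for H2-Eb1, -0.39 to 0.15 for H2-DMa and -0.023 to 0.37 for Ciita. For Trim24-/- against WT at 14 weeks Ciita ranged from -0.17 to 0.17. For the difference between ages they were -0.31 to 0.42 for Cd74, -0.0034 to 0.61 for H2-Aa, -0.14 to 0.61 for H2-Eb1, -0.43 to 0.15 for H2-DMa, -0.40 to 0.046 for 1418638_at and -0.34 to 0.24 for 1449580_s_at. For WT at 14 against 5 weeks they were -0.48 to 0.18 for Cd74, -0.56 to 0.16 for H2-Eb1, -0.37 to 0.21 for H2-DMa, -0.039 to 0.39 for Ciita and -0.35 to 0.20 for 1449580_s_at. Ciita and the H2-DM probe sets are limited by signal near the dim part of the arrays. At 14 weeks the differences of Cd74, H2-Aa, H2-Ab1 and H2-Eb1 stayed positive under every alternative run. Of the 6 members, the number with an unadjusted p below 0.05 was 4 under the settings that kept all 10 arrays, except that fitting all 22 arrays gave 1, and was 2 without animal liver_611WT, animal liver_613WT or animal liver_395M. No paired analysis was made, because the labels give no litter or batch by which animals of different groups could be paired.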
